A study of Mus musculus with 9 samples.

Results

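The genes described here are the mouse zinc finger genes whose symbol is Zfp followed by digits alone, without Zfp36, whose protein binds RNA through another kind of finger. The deposited table of 23420 genes held 332 such symbols. Of these, 221 had a mean normalized read count of 50 or more over 9 libraries and are the members described below. Of the other 111 symbols, 51 had a mean from 10 to under 50, 33 had a mean above 0 and under 10, and 27 had no read in any library. The members just inside the threshold were Zfp369 (mean 51.1) and Zfp282 (mean 51.4), and the genes just outside it were Zfp593 (45.6) and Zfp319 (44.0). A threshold on the mean can be met through 1 group alone: 199 members had a mean of 50 or more in each group, and 22 did not in at least 1. All 221 members entered the tests.

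RNA was sequenced from regulatory T cells (Tregs), the CD4 T cells that carry the transcription factor Foxp3 and restrain immune responses. Tregs labelled WT in genotype were sorted on a Foxp3 reporter that carries YFP, after paws and lymph nodes had been digested. The 3 groups of 3 libraries were synovial Tregs of mice with collagen-induced arthritis (a model of inflammatory joint disease), Tregs of the draining lymph nodes of those mice, and Tregs of the draining nodes of mice labelled as having no treatment. Synovium of untreated mice was not analysed here, so the joint as a tissue and its inflammation cannot be told apart. Every synovial library came from digested paw, so tissue and digestion of the paw cannot be told apart either. No label used here gives the age or sex of the mice. Titles number the mice, and in arthritic mice synovium and node carry the same numbers 1 to 3.

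C2H2 zinc finger proteins fold short loops around a zinc ion that is held by cysteines and histidines, and a row of such fingers reads bases of DNA in turn. Many of them also carry a KRAB box, which recruits the co-repressor TRIM28 and, with it, enzymes that lay down silencing marks on chromatin, above all over transposable elements. KRAB zinc finger genes lie in clusters of related copies that arose by tandem duplication. Members without a KRAB box are a mixed group that includes activators, repressors, splicing factors and mitotic proteins.

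All 221 members were matched to RefSeq genes of GRCm38.p6, 5 of them through an older symbol. A script translated the GENCODE vM21 coding sequences of 219 members and searched them for patterns. At least 1 C2H2 finger was found in 212 members, of which 112 also had the KRAB pattern (112 members called KRAB members below). Of the others, 6 had the SCAN pattern, a dimerization domain, and 94 had fingers and neither pattern. The KRAB pattern was strict: with or without fingers, 113 members matched it, and 128 did with 1 mismatch allowed. Members without the pattern can therefore include KRAB proteins. No finger was found by the pattern in 7 members. KRAB members carried a median of 12 fingers, other members with fingers a median of 7.5, and the highest count was 35. By position, 105 members lay in 14 clusters of at least 4 members with gaps of at most 500 kb. Read counting can be split between such copies: 36 members shared more than 10% of their 32-base words with transcripts of other genes, and 5 shared more than 50%, against a median of 1.56%. Exons of 53 members overlapped a gene on the opposite strand, and no source used here says whether reads were counted by strand.

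The members together took up a smaller share of the normalized counts in synovial Tregs. That share was 0.667% ± 0.054 (SD, n = 3, range 0.612 to 0.719%) in synovial libraries, 0.813% ± 0.031 (0.783 to 0.846%) in nodes of arthritic mice and 0.801% ± 0.017 (0.786 to 0.819%) in nodes of control mice. The synovial range lay below both node ranges, which overlapped each other. The summed normalized counts of the members were 84434 to 102780 in synovial libraries, 86497 to 94533 in arthritic nodes and 86552 to 92777 in control nodes. These ranges overlapped, so the lower share did not come with a lower sum. The median member read 163 to 193 in synovial libraries, 220 to 224 in arthritic nodes and 203 to 216 in control nodes. In bulk RNA, fewer cells that express a gene and less RNA per cell cannot be told apart. By group mean, 78 members were highest and 107 lowest in synovial Tregs, while 72 were highest in arthritic nodes and 71 in control nodes.

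Levels of different genes are compared per kilobase (kb) of exon. The highest mean normalized count per kb over the 9 libraries belonged to Zfp53 (1143, libraries 741 to 2162). Zfp706, studied in embryonic stem cell self-renewal, followed at 1109 (856 to 1309.9), and Zfp869 at 899.9 (740.0 to 1069). Zfp207, which encodes the spindle protein BuGZ, had 770.2 (455 to 918), and Zfp51 had 574 (415 to 652). The ranges of each neighbouring pair in this order overlapped. The median member had 41.7 per kb, and the 2 named genes Zfp53 and Zfp51 lie beside each other on chromosome 17.

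The tissue comparison set synovial against node Tregs of arthritic mice, and asks how gene expression of Tregs in the joint differs from that in the node draining it. Differences are of mean log2(normalized count + 1) ± standard error, synovium minus node, from limma. The fit covered 11357 genes whose mean reached 10, and a gene was called at a Benjamini-Hochberg adjusted p under 0.05 over all of them. Of the 221 members, 15 were higher in synovium, 6.79%, against a background of 17.9% of all genes tested. A further 36 were lower, 16.3%, against a background of 15.9%. That background takes in every gene whose mean reached 10. Over the 9435 genes that meet the members' own threshold, a mean of 50 or more, 19.8% were higher and 18.0% lower. The share of members lower in synovium was therefore near the background, while the share higher was below it, and 170 members did not pass. Of the members called, 2 higher and 8 lower ones had a mean under 50 in at least 1 group, and so met the membership threshold through the groups where they are high. The median difference of the members was -0.24, against -0.00 over all genes tested, with 91 members above 0 and 130 below. At least 2-fold differences were called in 7 of 221 members that were higher, a smaller share than the background of 11%. They were called in 24 lower ones (10.9%), against a background of 7.93%. The 3 synovial libraries lay above all 3 node libraries in 25 of 221 members, a smaller share than the background of 25.2%. They lay below them in 55, 24.9%, against a background of 23%. Without arthritic node library 1 the count of lower members was 22, and without arthritic node library 2 it was also 22. In the authors' deposited table for this comparison, 18 of 221 members were higher, a smaller share than the background of 17.1%. There 38 were lower, against a background of 14.1%. Both backgrounds cover 13116 genes, more than the 9435 that meet the members' threshold, and were not matched to it. In all, 49 members were called there and by limma, all 49 with the same sign.

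Direction went with the mean count. Among the 108 members with a mean of 50 to 200, 2 were higher and 17 lower, and their median difference was -0.55, against -0.06 for the 2455 genes in that range. Of those 2455 genes, 11.2% were higher and 11.9% lower. Among the 93 members with a mean of 200 to 1000, 6 were higher and 18 lower, with a median of -0.13 against -0.06 for 4253 genes. Of those 4253 genes 17.1% were higher and 19.4% lower. Among the 20 members with a mean of 1000 or more the order was turned, with 7 higher and 1 lower and a median of 0.15, against 0.10 for 2727 genes. Of those 2727 genes 31.8% were higher and 21.3% lower. Whether this relation differs from that of other genes was not tested. Of the 112 KRAB members 8 were higher and 18 lower (median -0.25), and of the 100 other members with fingers 6 were higher and 17 lower (median -0.26). With at least 2-fold required, 6 KRAB members were higher and 15 lower, and of the others with fingers 0 were higher and 9 lower. Over all genes tested, 11% were higher and 7.93% lower at that size. These classes rest on the strict KRAB pattern, and whether KRAB members differ from the others was not tested. Inside clusters 6 of 105 members were higher and 14 lower, and outside them 9 of 116 were higher and 22 lower. For the classes and the clusters alike, the background over all genes tested was 17.9% higher and 15.9% lower.

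**Figure D1:**
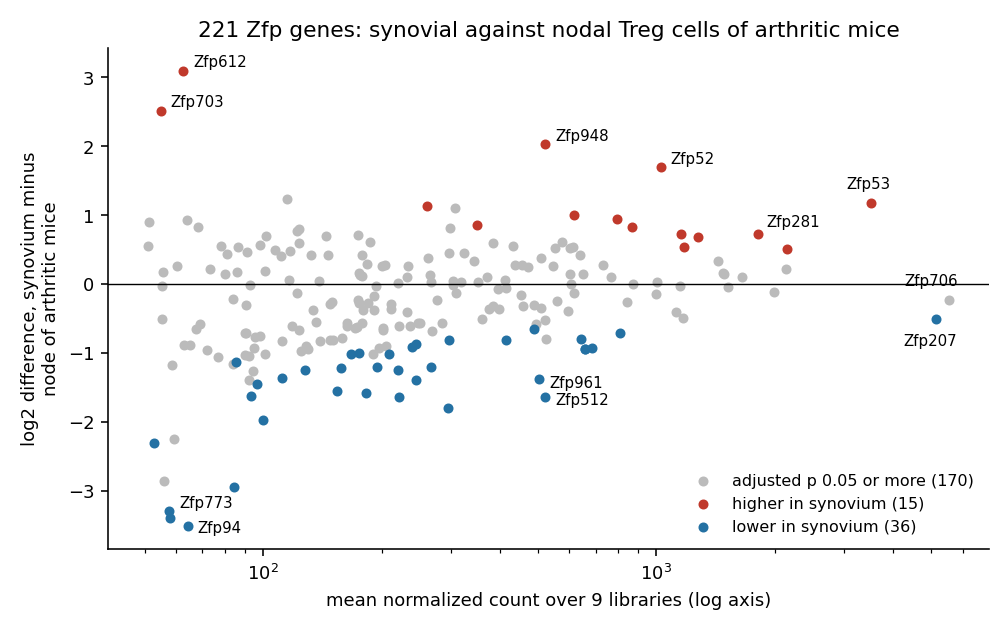
Each point is 1 of 221 members, with its mean normalized count over 9 libraries on a log axis and its log2 difference between synovial and node Tregs of arthritic mice on the other axis. The 15 red points (higher) reach up to the right-hand side of the plot, where Zfp53 and Zfp281 lie, and the 36 blue points (lower) lie mostly at means under 1000.

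**Figure D2:**
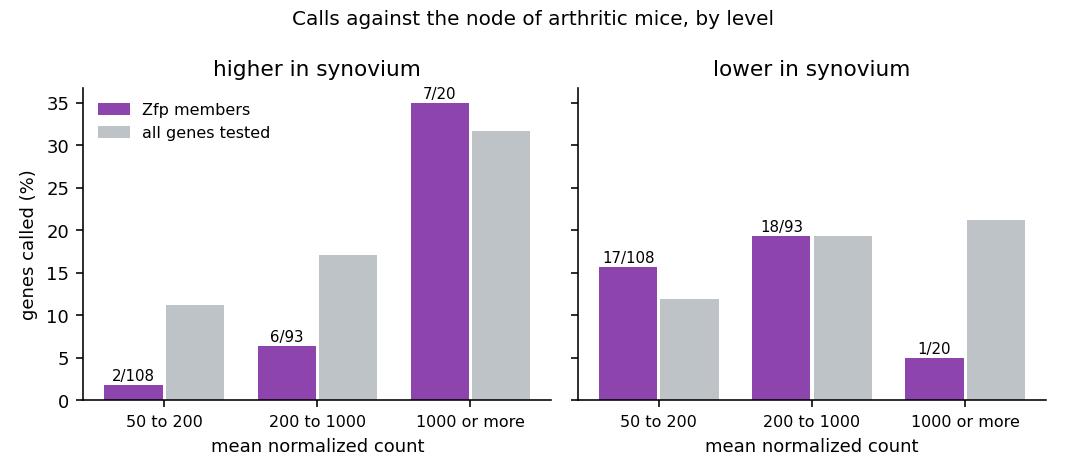
Bars give the percentage of genes called higher (left) or lower (right) in synovial Tregs within 3 ranges of mean normalized count, for members (purple, with counts) and for all genes tested (grey). Members called higher make up 2 of 108 at the lowest level and 7 of 20 at the highest.

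Of the 14 clusters, 1 had more than 1 member that rose. It holds 16 members and spans chr17:21008941-23564226 (GRCm38.p6), and 3 genes in a row in it, Zfp53, Zfp52 and Zfp948, all rose in synovial Tregs. Each encodes a KRAB protein, with 15, 14 and 15 fingers by the pattern. Their start regions are shown because the genes moved together. The sequences are the bases before a RefSeq transcript start (GRCm38.p6, plus strand), cut at RefSeq's gene start for Zfp53. Those of Zfp52 and Zfp948 lie inside the span RefSeq gives the gene and before the first exon in GENCODE. Capitals mark the runs of 10 or more bases found in all 3 windows, of which GAGTGGGAGG and AGTGGGAGGG overlap each other in Zfp53 and Zfp52 and stand apart in Zfp948.
Zfp53, chr17:21488738-21488933: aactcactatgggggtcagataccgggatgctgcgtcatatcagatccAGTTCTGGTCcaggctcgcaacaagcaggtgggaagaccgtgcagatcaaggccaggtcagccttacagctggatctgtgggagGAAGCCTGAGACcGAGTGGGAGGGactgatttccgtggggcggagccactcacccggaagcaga
Zfp52, chr17:21535289-21535538: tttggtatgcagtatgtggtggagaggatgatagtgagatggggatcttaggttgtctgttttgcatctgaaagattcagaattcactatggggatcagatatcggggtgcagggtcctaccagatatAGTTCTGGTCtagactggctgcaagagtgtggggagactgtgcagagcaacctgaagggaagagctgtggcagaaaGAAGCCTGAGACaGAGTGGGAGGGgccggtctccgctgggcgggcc
Zfp948, chr17:21566728-21566977: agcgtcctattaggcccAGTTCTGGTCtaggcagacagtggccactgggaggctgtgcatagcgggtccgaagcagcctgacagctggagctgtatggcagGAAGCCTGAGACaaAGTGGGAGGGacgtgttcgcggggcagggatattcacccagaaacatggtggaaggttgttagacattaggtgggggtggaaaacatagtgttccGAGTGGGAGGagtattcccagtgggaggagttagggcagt
The run GAAGCCTGAGAC is 12 bases long and was found, on either strand, in 6 of 32851 RefSeq windows of 300 bases (0.0183%), of which 3 are those printed. The run AGTTCTGGTC was in 34 windows (0.103%), GAGTGGGAGG in 163 (0.496%) and AGTGGGAGGG in 185 (0.563%). Among other cluster members, the window of Zfp946 held both of the last runs and that of Zfp945 held GAGTGGGAGG. No other window of the cluster's members held GAAGCCTGAGAC, and no window was matched for Zfp51 and Zfp40. The runs were picked because these 3 windows share them, so their presence there was fixed in advance. A match of letters is a description and not a binding site, and shared regulation was not tested.

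Zfp53 (chr17:21488934-21533201) read 5149, 6627 and 4494 in the synovial libraries, 2378, 2272 and 2446 in the nodes of arthritic mice and 2645, 2859.9 and 2661 in the nodes of control mice. Every synovial library lay above every node library. The difference in the tissue comparison was 1.18 ± 0.13 (adjusted p = 2.89e-05), a ratio of means of 2.29. Zfp52 (chr17:21533725-21563362), which begins within 1 kb of the end of Zfp53, read 1889, 1889 and 2028 in synovium, 679, 527 and 599 in arthritic nodes and 669, 461 and 477 in control nodes. It rose by 1.69 ± 0.17 (adjusted p = 1.22e-05), again with no overlap between synovial and node libraries. Zfp948 (chr17:21565816-21589324) read 1003, 1151 and 874 in synovium, 269.6, 249 and 220.1 in arthritic nodes and 382, 210.3 and 326 in control nodes. It had the largest estimate of the trio, 2.03 ± 0.23 (adjusted p = 3.76e-05), and its lowest synovial library was more than 2 times its highest node library. Words shared with other transcripts made up 6.14%, 7.01% and 3.64% of the trio's exons. The calls of all 3 genes held in each of 18 alternative fits, those without 1 library included.

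The rest of that cluster was mixed. On one side, Zfp51 read 1583, 1678 and 1580.0 in synovium and 1595, 1482 and 1270.1 in arthritic nodes, ranges that overlapped, with a difference of 0.16 ± 0.16 (95% interval -0.18 to 0.50). That interval lies below the interval of Zfp53, 0.89 to 1.47. Zfp54 next to it gave 0.55 ± 0.27 (adjusted p = 0.142) and Zfp677 gave 0.53 ± 0.20 (adjusted p = 0.0593), neither of which passed. Both did without synovial library 3 (adjusted p = 0.0174 and 0.0458), as did Zfp54 with library weights (adjusted p = 0.0225) and Zfp677 by DESeq2 (adjusted p = 0.0365). On the other side of the trio, Zfp760 read 51.8, 223 and 120.2 in synovium against 268, 253 and 280.4 in arthritic nodes, a difference of -1.25 ± 0.44 (adjusted p = 0.0442). It passed in 8 of 18 alternative fits. The call was lost without synovial library 1 or 3 or arthritic node library 1 or 2 or 3 (adjusted p = 0.0733 to 0.158), and without the filter on low values, without the mean-variance trend, with only the 2 groups compared, by edgeR or by DESeq2 (adjusted p = 0.0611 to 0.0896). Zfp946, further along, fell too, from 167, 121 and 119 in arthritic nodes to 50.7, 58.7 and 46.1 in synovium (-1.36 ± 0.36, adjusted p = 0.0107), a call lost without arthritic node library 1 (adjusted p = 0.0541). The other 8 members of the cluster did not pass in the tissue comparison. No member passed among the 13 of the chromosome 13 cluster (chr13:67038594-67827000), and the 10 of the cluster at chr17:32765496-33631716 gave 1 higher and 3 lower.

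**Figure D3:**
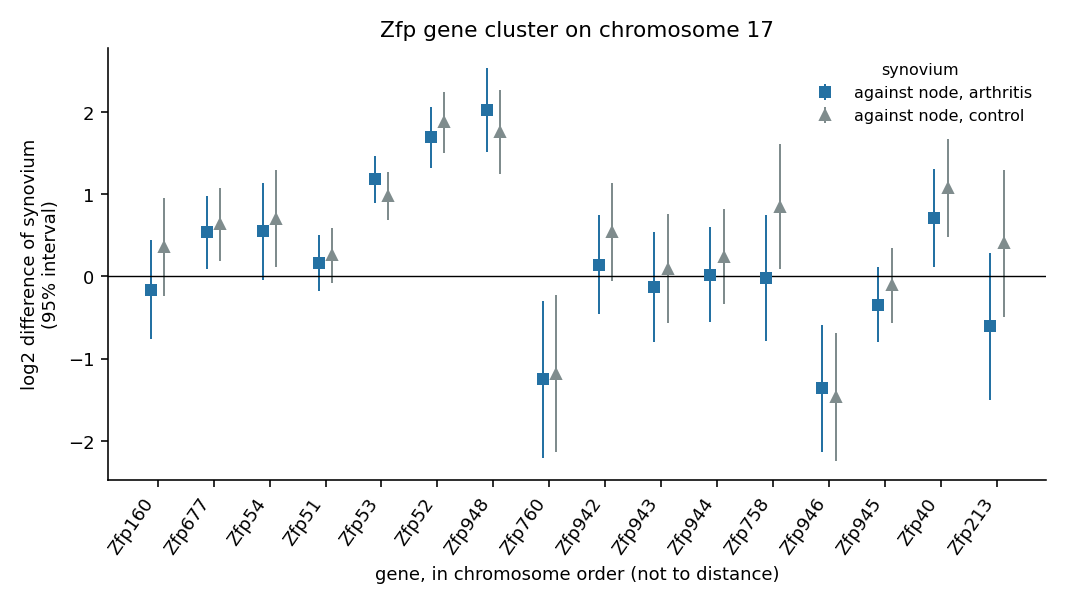
Points give the log2 difference of synovial Tregs from node Tregs of arthritic mice (squares) or of control mice (triangles) for 16 members of the chromosome 17 cluster in gene order, with 95% intervals from limma. Zfp53, Zfp52 and Zfp948 stand above 0 against both nodes, and Zfp760, whose call was lost in 10 of 18 alternative fits, and Zfp946 stand below 0.

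Among the other members that rose, Zfp703 and Zfp612 had means under 50 in both nodes and met the membership threshold through synovium. Zfp703, a co-repressor of the NET family in which the pattern found no finger, read 122, 141 and 89.9 in synovial libraries, 28.7, 7.70 and 32.3 in arthritic nodes and 23.1, 17.2 and 31.95 in control nodes. It rose by 2.51 ± 0.62 (adjusted p = 0.00784), 5.14-fold as a ratio of means, and no library overlapped. A predicted gene on the other strand, Gm45371, overlaps 13.5% of its exons. Zfp612, a KRAB member, read 94.8, 114 and 149 in synovium against 6.09, 5.77 and 55.03 in arthritic nodes. Its difference was 3.09 ± 0.79 (adjusted p = 0.0095), but control nodes read 66.2, 22.6 and 50.2, and against those it did not pass (adjusted p = 0.165). Zfp667, also KRAB, read 284, 414 and 372 against 202, 127 and 161 (1.13 ± 0.29, adjusted p = 0.0101), and control nodes, at 346, 188 and 259, overlapped the synovial range.

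Of the 7 members with a mean of 1000 or more that rose, 3 were among the 8 KRAB members at that level and 4 among the 12 others. The rises of Zfp281 and Zfp655 at that level, and of Zfp410 and Zfp131 below it (means 869 and 794), passed in all 18 alternative fits and were of 1.65- to 1.96-fold by ratio of means. Zfp281, a factor that binds GC-rich promoters and is known from embryonic stem cells, read 2358, 2488 and 2206 in synovium, 1437, 1509 and 1336 in arthritic nodes and 1741, 1619.6 and 1611 in control nodes. The synovial libraries stood clear of the others, and the difference was 0.72 ± 0.11 (adjusted p = 3.12e-04). Zfp410, known as the activator of the chromatin remodeler gene Chd4, read 981, 1549.9 and 1175 in synovium and 724, 603 and 737 in arthritic nodes. It rose by 0.82 ± 0.18 (adjusted p = 0.00411), and control nodes, at 754, 691 and 603, overlapped arthritic nodes. Chd4 itself, looked up after these values were seen, read 2459, 2509 and 3084 in synovium and 2460.2, 1965 and 2293 in arthritic nodes (0.26 ± 0.12, adjusted p = 0.129) and did not pass. Zfp131, a protein with a BTB domain as well as fingers, read 1054, 1579 and 901 in synovium against 535, 706 and 563 in arthritic nodes (0.94 ± 0.21, adjusted p = 0.00476). Zfp655 read 1663, 1941 and 1397 against 991, 1035 and 965 (0.73 ± 0.20, adjusted p = 0.0124).

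**Figure D4:**
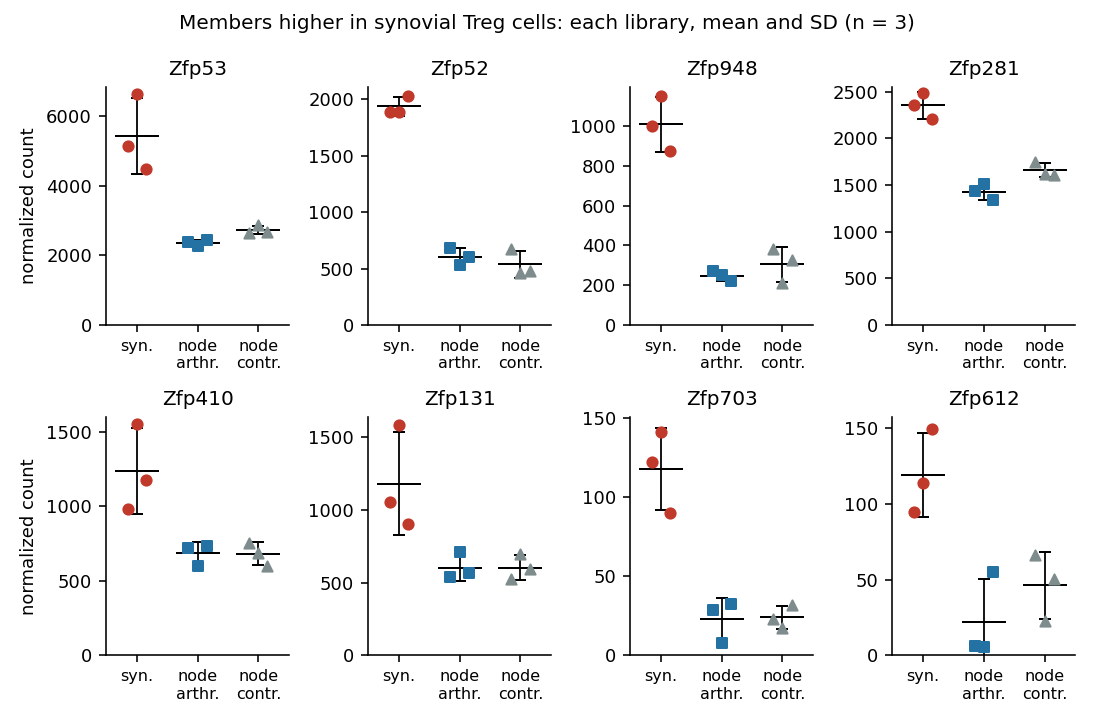
Each panel shows the normalized count of 1 member in the 9 libraries (points), with the mean and SD of each group of 3 as bars. In all 8 panels the 3 synovial libraries lie above the 3 libraries of arthritic nodes, and in the panel of Zfp612 both node groups overlap each other.

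Calls of 5 more rises were lost when 1 library or another was left out, which also leaves fewer libraries in that group. For 4 of them the call was also lost under another model or scaling. Zfp868 rose by 1.00 ± 0.31 but did not pass without synovial library 1 or 2 or 3 or arthritic node library 1 or 3 (adjusted p = 0.0513 to 0.0956), or without the mean-variance trend (adjusted p = 0.0779). Zfp382 rose by 0.85 ± 0.23 and did not pass without arthritic node library 1 (adjusted p = 0.0663). For Zfp62 (0.68 ± 0.21) the call was lost without synovial library 2 or arthritic node library 3 (adjusted p = 0.105 to 0.116), and with quantile normalization or without the mean-variance trend (adjusted p = 0.0789 to 0.0813). Zfp871, a KRAB member, gave 0.54 ± 0.17, and did not pass without synovial library 2 or arthritic node library 1 or 3 (adjusted p = 0.0566 to 0.123), or with quantile normalization or without the mean-variance trend (adjusted p = 0.0739 to 0.121). Zfp263, a SCAN member that binds promoters, read 2123, 3146 and 2626 in synovium and 1866, 2005 and 1659.7 in arthritic nodes. Its difference of 0.50 ± 0.15 did not pass without synovial library 2 or arthritic node library 3 (adjusted p = 0.0695 to 0.0814), or with quantile normalization, without the mean-variance trend or with library weights (adjusted p = 0.0574 to 0.137).

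Of the members that fell, Zfp512 had the smallest p. This gene, whose human counterpart is known to bind the heterochromatin around centromeres, read 202, 252 and 220.3 in synovium, 766, 569.6 and 777 in arthritic nodes and 650.4, 568 and 691 in control nodes. Both node groups lay well above the synovial libraries, and the difference was -1.63 ± 0.19 (adjusted p = 4.10e-05), 3.13-fold lower by the ratio of means. Zfp961, a KRAB member, read 241, 338 and 159.6 in synovium and 607, 606 and 632 in arthritic nodes (-1.38 ± 0.27, adjusted p = 0.00168). Zfp606, a KRAB member too, read 143, 123 and 75.3 against 347, 415 and 287 (-1.64 ± 0.30, adjusted p = 0.00122), with control nodes between at 194, 178 and 231. Zfp873 gave -1.39 ± 0.32 (adjusted p = 0.0051). For these 4 genes the libraries of synovium and arthritic node did not overlap.

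The largest falls were found in members with low counts. Zfp773, Zfp94, Zfp239, Zfp827, Zfp248, Zfp563, Zfp605 and Zfp710 had synovial means under 50 and met the membership threshold through the nodes. Zfp773, a KRAB gene on chromosome 7, read 4.41, 4.70 and 16.9 in synovium, 94.8, 92.4 and 57.7 in arthritic nodes and 82.3, 124 and 42.9 in control nodes. Its difference of -3.30 ± 0.65 (adjusted p = 0.0019) corresponded to 9.43-fold by the ratio of means, and 16.9% of its words are shared with other transcripts. Zfp94, also KRAB and on chromosome 7, read 18.7, 17.6 and 0 against 76.5, 67.3 and 102 in arthritic nodes and 81.3, 130.0 and 84.9 in control nodes. A library at 0 enlarges its difference on the log2 scale, -3.51 ± 0.96 (adjusted p = 0.0133), and by the ratio of means it was 6.77-fold lower. Zfp937 read 60.6, 89.2 and 178 in synovium and 373, 356 and 316 in arthritic nodes (-1.81 ± 0.35, adjusted p = 0.00172). It shares 44.3% of its words with other transcripts, as Zfp442 (-1.55 ± 0.40) shares 45% and Zfp524 (-1.58 ± 0.35) shares 45.7%, so that the values of these 3 genes are uncertain. In Zfp524, 46.5% of the exons also overlap another gene on the same strand.

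The calls of 6 further falls were lost when 1 library or another was left out. Zfp239 read 16.5, 0 and 29.2 in synovium and 58.3, 76.97 and 134 in arthritic nodes, and its difference of -3.40 ± 1.07 did not pass without synovial library 2 or arthritic node library 1 or 2 or 3 (adjusted p = 0.0521 to 0.0942), or without the mean-variance trend or by edgeR (adjusted p = 0.064 to 0.0699). Zfp827 (-2.94 ± 0.81) did not pass without arthritic node library 3 (adjusted p = 0.0507). For Zfp248 (-2.30 ± 0.71) the call was lost without synovial library 1 or 2 or arthritic node library 1 or 2 (adjusted p = 0.0748 to 0.0921). Zfp563, a KRAB member, gave -1.98 ± 0.56, which did not pass without synovial library 3 or arthritic node library 1 (adjusted p = 0.0533 to 0.0715). Zfp605 (-1.62 ± 0.49) lost its call without synovial library 3 or arthritic node library 2 or 3 (adjusted p = 0.0651 to 0.0788). Zfp710 (-1.45 ± 0.45) lost it without synovial library 1 or 2 or arthritic node library 2 (adjusted p = 0.0534 to 0.127).

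**Figure D5:**
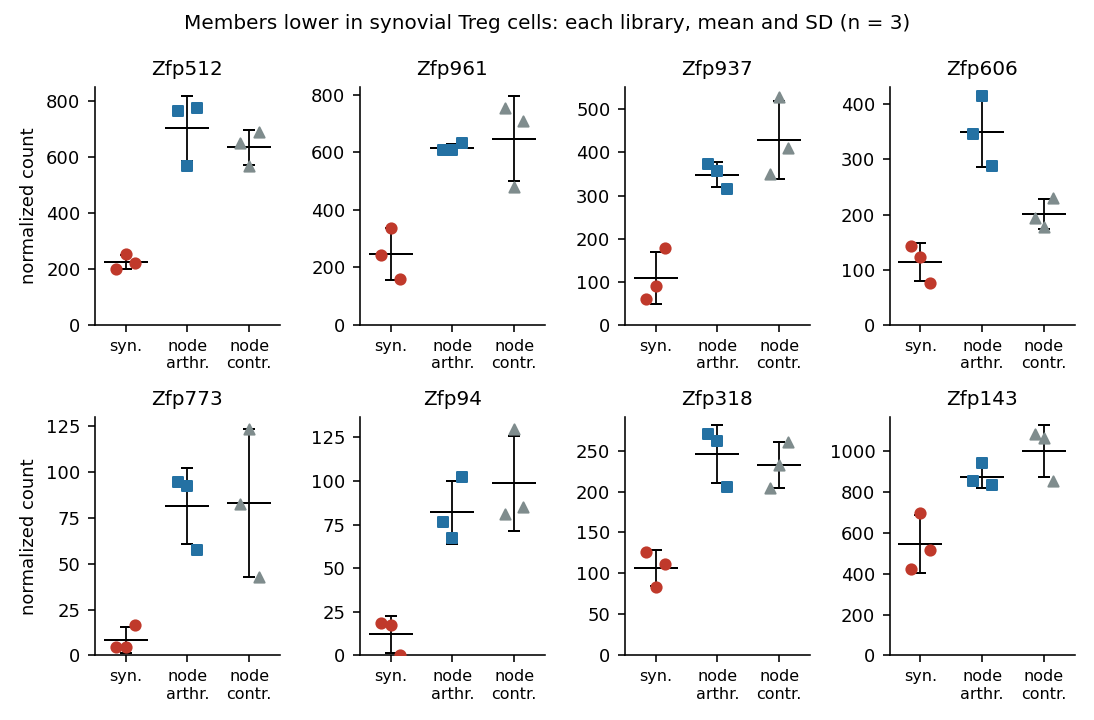
Each panel shows the normalized count of 1 member in the 9 libraries (points), with the mean and SD of each group of 3 as bars. In all 8 panels the 3 synovial libraries lie below the 3 libraries of arthritic nodes, and the panels of Zfp773 and Zfp94 have the lowest axes.

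Several members have a described role, and 23 of them were followed whatever their values. Zfp318, which governs the alternative processing of immunoglobulin heavy chain transcripts in B cells, read 126, 83.4 and 111 in synovium and 269.6, 262 and 205 in arthritic nodes, and fell by 1.20 ± 0.28 (adjusted p = 0.00524). Zfp143, a promoter factor that works at chromatin loops, read 423, 697 and 514 against 852, 939 and 831 (-0.71 ± 0.19, adjusted p = 0.0116), but lost its call without synovial library 1 (adjusted p = 0.0513). Zfp207, the spindle protein gene, read 4482, 5456 and 3032 in synovium against 6114, 6056 and 5844 in arthritic nodes. Its difference of -0.51 ± 0.17 did not pass without synovial library 1 or 3 or arthritic node library 1 or 2 or 3 (adjusted p = 0.0521 to 0.0847), or without the mean-variance trend or with only the 2 groups compared (adjusted p = 0.0561 to 0.105). Zfp831 read 163, 76.3 and 126 against 340.0, 181 and 212 (-1.01 ± 0.36), while control nodes, at 135, 152 and 119, overlapped synovium. Its call was lost without synovial library 2 or 3 or arthritic node library 1 or 3 (adjusted p = 0.0708 to 0.193), and without the filter on low values, without the mean-variance trend, with library weights or with only the 2 groups compared (adjusted p = 0.0534 to 0.0695). With Zfp703, Zfp281, Zfp410 and Zfp131 above, 8 of these 23 passed, 4 in each direction. That is 34.8%, near the 33.8% of all genes tested that were called in either direction.

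Those that did not pass include members known for silencing. Zfp809, which directs silencing of retroviruses in embryonic stem cells, read 575, 479 and 269 in synovium and 498, 436 and 388 in arthritic nodes (-0.06 ± 0.30, 95% interval -0.71 to 0.58). Zfp445, a guardian of genomic imprinting, read 1416, 1954 and 1407 against 1536, 1594 and 1752 (-0.05 ± 0.17, interval -0.42 to 0.33). For Zfp568, which represses Igf2 in the embryo, the values were 51.8, 127 and 5.62 and 71.3, 68.3 and 24.5 and the interval was wide (-2.60 to 1.59). Zfp335, needed for T cell development, gave 0.01 ± 0.35 (interval -0.75 to 0.77), and Zfp91, a ubiquitin ligase, gave 0.00 ± 0.20 (interval -0.44 to 0.45). Zfp148, related to Zfp281, read 1754, 1990.3 and 2059 in synovium and 2308, 1978 and 2033 in arthritic nodes, a difference of -0.12 ± 0.11 (interval -0.37 to 0.12). The intervals of Zfp148 and Zfp281 (0.48 to 0.96) do not overlap, and Zfp148 was called lower with quantile normalization (adjusted p = 0.0367). Zfp706 gave -0.23 ± 0.12 (adjusted p = 0.167), the SUMO ligase gene Zfp451 0.45 ± 0.34 and the splicing factor gene Zfp326 0.80 ± 0.39. Zfp326 passed without synovial library 2 (adjusted p = 0.00144), with library weights and by DESeq2 (adjusted p = 0.0193 and 0.0336). An adjusted p that misses the threshold does not show equal levels.

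The promoters of the members held some motifs more often than promoters at large. RefSeq gave 220 start windows (250 bases before and 50 after the start) for 184 members, and 32851 in all. On either strand, the letters GGGCGG, bound by SP and KLF factors, were in 47.7% of the members' windows and 35.7% of all windows. CCGGAAG, the core of ETS family sites, was in 21.8% against 8.86%, and AAGATGGC, bound by YY1, in 6.36% against 2.75%. TGANTCA, the AP-1 motif, was in 3.64% against 7.81%. GGGCGG was in 14 of the 16 windows of members called higher in the tissue comparison, in 10 of the 33 windows of those called lower and in 81 of the other 171. In the same order, those windows belong to 12, 29 and 143 genes, and their median GC content was 62.2%, 54.3% and 54.7%. GGGCGG is made of G and C alone, so its share cannot be told apart from GC content here. Windows of 1 gene can overlap, and by class GGGCGG was in 36.5% of the windows of KRAB members and 60.0% of those of other members. These are shares of letters and no test was made of them.

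Genes that work with KRAB proteins are listed apart. Trim28, the co-repressor itself, read 398, 552 and 309 in synovium, 474, 433 and 468 in arthritic nodes and 391, 478 and 342 in control nodes (-0.17 ± 0.23, adjusted p = 0.614), and Setdb1, its histone methyltransferase, gave -0.16 ± 0.23 (adjusted p = 0.62). Neither passed. Of 25 genes of TRIM28-dependent and related silencing, 2 were higher in synovium (background 17.9%) and 7 lower (background 15.9%), with a median of -0.18 beside -0.00 over all genes tested. The lower genes included Atf7ip, the partner that stabilizes SETDB1, at 2185, 2110.0 and 1954 in synovium against 3932, 4098 and 3593 in arthritic nodes (-0.89 ± 0.11, adjusted p = 4.26e-05). Chd3, a remodeler of the NuRD complex, gave -0.97 ± 0.18 and Suv39h1, a methyltransferase of heterochromatin, -1.01 ± 0.26. Morc3, a chromatin ATPase, gave -0.74 ± 0.15 (adjusted p = 0.00257). The higher genes included Pphln1, a subunit of the HUSH silencing complex (0.98 ± 0.18, adjusted p = 0.00134).

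Other zinc finger families are set beside the same background, 17.9% of all genes tested higher and 15.9% lower. Of 32 Zbtb genes tested, 5 were higher and 2 lower, led by Zbtb1 at 5107, 5090.1 and 3853 in synovium against 1609, 1341 and 1199 in arthritic nodes (1.76 ± 0.17). Of 17 Zscan and Zkscan genes, none was higher and 3 were lower, and Zscan12 read 76.03, 91.6 and 101 against 205, 296 and 271 (-1.51 ± 0.26). Of 12 Klf genes, 4 were higher and 1 lower, with Klf6 at 2.26 ± 0.13 and Klf3 at -1.67 ± 0.27. Of 5 Ikzf genes, 3 were higher and 1 lower: Ikzf4 gave 1.76 ± 0.17 and Ikzf1 -1.15 ± 0.13. Their medians were 0.26, -0.28, 1.03 and 0.99, in the same order. Whether any of these counts differs from that of the Zfp members was not tested.

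The disease comparison set node Tregs of arthritic against those of control mice, and asks what arthritis changes in the draining node. No member was called higher (background 0.335%) and none lower (background 0.00881%) by limma, nor by edgeR or DESeq2. At an unadjusted p under 0.05 there were 12 members, 5.43%, against a background of 9.08%. The median difference was 0.06, against 0.01 over all genes tested. The members with the smallest p, which did not pass, were Zfp672, Zfp27, Zfp606, Zfp954 and Zfp157, all higher in arthritic nodes. Zfp672 read 360.0, 382 and 449.9 in arthritic nodes and 195, 293 and 278 in control nodes, groups that did not overlap (0.65 ± 0.22, adjusted p = 0.356). Zfp606 gave 0.79 ± 0.30 (adjusted p = 0.462), Zfp157 0.79 ± 0.31, Zfp954 1.03 ± 0.40 and Zfp27 1.29 ± 0.48. For Zfp53, Zfp52 and Zfp948 the differences were -0.20 ± 0.13, 0.18 ± 0.17 and -0.27 ± 0.23, none of which passed.

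Synovial Tregs were also set against node Tregs of control mice, where both tissue and disease differ. This comparison uses the same synovial libraries, so it is no independent repeat of the tissue comparison. Of the 221 members, 22 were higher, 9.95%, against a background of 21.6%, and 40 were lower, 18.1%, against a background of 18.5%. With at least 2-fold required, 10 of 221 were higher, a smaller share than the background of 13.6%. A further 28 were lower, against a background of 9.7%. These backgrounds take in every gene whose mean reached 10 and were not matched to the members' threshold. The median difference was -0.12, against 0.02 over all genes tested. The trio of chromosome 17 gave 0.98 ± 0.13 for Zfp53, 1.87 ± 0.17 for Zfp52 (adjusted p = 3.85e-06) and 1.75 ± 0.23 for Zfp948. Zfp703 gave 2.26 ± 0.62 (adjusted p = 0.0119). Zfp958, a KRAB member, read 699, 518 and 385 in synovium, 249, 286 and 197 in arthritic nodes and 57.2, 186 and 198 in control nodes. It rose by 2.01 ± 0.42 against control nodes (adjusted p = 0.00259). Against arthritic nodes its difference was 1.10 ± 0.42, which did not pass (adjusted p = 0.0637). In that tissue comparison it was called in 4 of 18 alternative fits: with mouse as a block (adjusted p = 0.0058), with library weights, with only the 2 groups compared and by DESeq2 (adjusted p = 0.00908 to 0.0205). The authors' deposited table also lists it as higher (adjusted p = 9.01e-04). Zfp574 rose by 1.35 ± 0.41 against control nodes, a call lost without synovial library 1 or 2 or control node library 1 or 2 (adjusted p = 0.0595 to 0.0703).

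The largest falls against control nodes were those of Zfp94 (-3.77 ± 0.96), Zfp41, Zfp773 (-3.23 ± 0.65), Zfp239 and Zfp937 (-2.09 ± 0.35, adjusted p = 4.95e-04). Zfp41 read 16.5, 34.1 and 0 in synovium and 107, 57.8 and 103 in control nodes (-3.36 ± 1.04), and did not pass without control node library 1 or 3 (adjusted p = 0.0591 to 0.0627), or without the mean-variance trend, with only the 2 groups compared or by edgeR (adjusted p = 0.0511 to 0.0593). Zfp239 (-2.89 ± 1.07) passed in only 7 of 18 alternative fits. Its call was lost without synovial library 2 or control node library 1 or 2 or 3 (adjusted p = 0.0575 to 0.154), and with a pseudocount of 0.5, without the filter on low values, without the mean-variance trend, with library weights, with only the 2 groups compared, with the replicate number as a block or by edgeR (adjusted p = 0.056 to 0.0981). Zfp706 read 4523, 5260.4 and 4266 in synovium against 6459.6, 6377 and 6289 in control nodes. Its small difference of -0.45 ± 0.12 passed (adjusted p = 0.0112) and the groups did not overlap, but the call was lost without the mean-variance trend (adjusted p = 0.0545).

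Other measures moved with the synovial libraries as well. Each library held 11300406 to 12855435 reads assigned to genes. All 6 genes that define Tregs were present in each group, with Foxp3 at 443, 413 and 538 in synovium and 222, 294 and 291 in arthritic nodes. Of 19 genes that respond to tissue dissociation and stress, 16 were higher in synovial than in arthritic node Tregs and none lower, and their summed level was 197097 to 219382 in synovial libraries, 42151 to 63785 in arthritic nodes and 40264 to 48377 in control nodes. Dendritic cell markers gave 3 of 5 tested genes higher (sum 13105 to 16118 in synovium and 4519 to 5471 in arthritic nodes), with Clec9a at 0 in all 3 groups and Itgax at 0 in synovium and control nodes. Fibroblast markers gave 1 higher and 1 lower of 8 (sum 3072 to 6521 against 3790 to 4605), and macrophage markers 1 higher and 2 lower of 6 (sum 5474 to 7568 against 9203 to 11676). B cell and plasma cell markers gave 1 lower of 2, CD8 and NK cell markers none of 3, and neutrophil markers were all under the filter. Ncr1 and Elane were at 0 in all 3 groups. The part of stress genes and of other cells in the members' differences was not tested.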

How the data were processed

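Tregs were profiled in 9 libraries of 3 groups, taken from the sample titles. The submitters' processing notes name HISAT2, HTSeq, DESeq2 and mm10, with no version, annotation or strand setting given there. A normalized signal was deposited: each library's read counts over 1 size factor. In each library 100% of nonzero values were whole multiples, within 0.01, of a constant, which gave 11300406 to 12855435 reads per library, and 3 reads correspond to normalized values of 2.61 to 3.52. The authors' deposited table of the tissue comparison gives log2 fold changes, a test score and p-values, per the file headers. It was used for counts of calls and for the call of Zfp958.

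The members and gene lists were chosen with earlier results of these data known. The rule for named members took up to 15 called members per direction without overlapping libraries by largest difference in the tissue comparison, 5 per direction against control nodes, the 5 smallest p in the disease comparison, the 5 highest levels per kb, those nearest the threshold and members with a described role. Zfp760, Zfp946, Zfp54 and Zfp677 were added for their position in a cluster, and genes of other lists for their role or smallest p. Some genes of those lists are not reported here.

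Tests used limma-trend (limma 3.58.1, R 4.3.3) on log2 of the normalized value with a pseudocount of 1, which lowers the change of low genes. The 11357 genes whose mean reached 10 were tested, with all 9 libraries in each fit, two-sided, with Benjamini-Hochberg adjustment and a threshold of 0.05. The p-values rest on the spread of libraries within their groups, pooled over the 3 groups and drawn toward the mean-variance trend over genes. The main fit does not use the pairing of synovium and node by mouse. Scripts were tested on simulated data. Alternatives changed scaling, pseudocount, filter, variance model and libraries fitted, and used edgeR 4.0.16 and DESeq2 1.42.0 on the recovered read counts. RefSeq proteins were not used here; protein patterns came from GENCODE vM21 coding sequences.

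In the tissue comparison the titles pair libraries by mouse, and the residuals of same-numbered libraries correlated at 0.02, 0.05 and 0.09. These values are low, but for all 3 synovial libraries the node library of the same number gave the highest correlation. The fit with the mouse number as a block gave 18 members higher and 38 lower.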

Additional observations from a re-analysis of the deposited data

How the results depend on the processing

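No called member named above changed sign in any alternative, and the counts of members called stayed within 1.5 times of the reported ones except as follows. With at least 2-fold required, 7 members were higher in the tissue comparison and 10 in synovium against control nodes. Among the 113 members with a mean of 200 or more, 19 were lower in the tissue comparison and 21 in synovium against control nodes, with fewer members counted. Their medians were -0.035 and 0.071, in the same order. The negative medians reported for all members therefore rest on those with a mean under 200. Leaving out 1 library at a time gave 11 to 18 higher and 22 to 31 lower members in the tissue comparison (median -0.25 to -0.15). Without a library, the disease comparison gave 0 in each direction with a median of 0.0092 to 0.14, and synovium against control nodes gave 16 to 24 higher and 28 to 37 lower with a median of -0.18 to -0.05. Quantile normalization moved the median against control nodes to -0.23 and that of all genes to -0.13. Of the 36 named members called in the tissue comparison, 20 passed in each of 18 alternatives and 16 were lost in at least 1. In the paired fit, with the mouse number as a block, the tissue comparison called 18 higher and 38 lower, of which 15 and 34 were called without it. Of the members named above, it changed the call of Zfp958 alone in that comparison. In the disease comparison the numbers pair different mice: residuals correlated at 0.0046, 0.067 and 0.070, and the block gave 0 calls. Against control nodes the block gave 22 higher and 31 lower. At these depths, changes of members near a mean of 50 rest on few reads.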
